A study of Drosophila melanogaster with 24 samples.

Results

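This account concerns the noncoding RNAs of *Drosophila* that carry only a CR number as a symbol, as far as they were expressed in single *tau*-KO brains. Of 16995 genes in the count table, 2385 had a symbol of CR followed by digits, and the 181 with at least 5 counts in at least 3 of 24 libraries were taken as members. A further 478 CR symbols had counts but fell below this rule, and 1726 had no count in any library. The members were thus chosen by their own counts, over all groups together. At the edge of the rule, the 29 members with 5 counts in exactly 3 libraries held 18 to 76 counts in all, with a median of 44. The 51 CR symbols at 5 counts in 2 libraries held 12 to 52 counts, with a median of 26. In total 34 members would fail the rule if some 1 group were left out, so a difference of that group was partly built into their choice.

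The study asked whether male and female flies respond differently to traumatic brain injury (TBI) when the microtubule-associated protein Tau is missing. Adult mated *tau*-KO flies, 10 to 14 days old, received a single full body strike in a vial on a spring-driven high impact trauma device with its arm held to 45 degrees, and brains were collected at 1, 2 and 4 h post-TBI beside uninjured controls of each sex. Each of the 8 groups had 3 libraries, each made from the RNA of 1 brain by QuantSeq, a 3′ method that reads the end of polyadenylated transcripts. Controls and injured flies alike came from the 1 *tau*-KO stock and all carried the *tau* deletion, so no group here had Tau.

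Long noncoding RNAs are transcripts without a long open reading frame. Some act on chromatin or on neighbouring genes, some are the primary transcripts from which microRNAs are cut, and for many no function is known. Those that run antisense to a coding gene can share its exons on the opposite strand. In flies, many noncoding RNAs are found chiefly in the nervous system and in the testis.

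The names were checked against a later genome release than the dm3 build of the counts, which gave class and neighbours but no coordinates for the deposited values. Of the 181 members, 177 matched. The later annotation listed 135 as lncRNA, 37 as antisense RNA, 1 as a short noncoding RNA (*CR43701*) and 1 as a pseudogene (*CR42875*). It listed 3 as protein coding, so the symbol was no longer apt for *CR44404*, now *IBIN*, *CR43051* and *CR45045*. Between coding genes lay 88 members, while 68 overlapped a coding gene on the other strand, 15 on the same strand and 6 on both. The X chromosome held 40 members, which is 22.1% of them, against 12.4% of all CR symbols. The median exon length was 1087 bases for members and 658 for all CR symbols. At 25 members a coding gene on the same strand ended within 2 kb upstream, where a 3′ read from an extended coding transcript would be counted for the member. Whether the counting used strand is not given in the sources used here, and without it a member and its antisense partner cannot be told apart where they overlap. In the later annotation 109 members had exons wholly free of the exons of other genes, and 18 had under 50% of their exon bases free.

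Depth and sample makeup varied. Gene counts ranged from 117416 in male control replicate 1 to 1880528 in male 1 h replicate 2. The labelled tissue was supported by the neuron list only in part, and less so in the 2 libraries named below. Its 13 markers were all measured and summed to 2131 to 5393 CPM (counts scaled to library size by TMM factors, per 1e+06). The 14 photoreceptor markers summed to 2594 to 17801 CPM. The 8 fat body markers, of which *Npc2e* had no count, summed to 1356 to 22681 CPM. The neuron list thus does not show that the libraries held brain RNA alone. Male control replicate 2 and male 1 h replicate 2 stood apart, with the 10 muscle markers at 376 and 440 CPM against 2957 to 4080 CPM elsewhere, and the 8 gut markers at 2.42 and 26.2 CPM against 149 to 997 CPM. These 2 libraries were also the lowest in the neuron marker *nSyb*, at 63.0 and 87.3 CPM against 276 to 772 CPM elsewhere. The same held for *brp* (63.0 and 96.6 against 176 to 627 CPM) and *elav* (45.2 and 37.6 against 88.0 to 394 CPM). The photoreceptor gene *ninaE* was highest there, at 1226 and 2179 CPM against 260 to 1008 CPM elsewhere. Female control replicate 2 stood apart with 7727 CPM of the 10 antenna markers, where the other libraries had 236 to 1302 CPM. The *tau* gene itself gave 53.2 to 191 CPM, and whether these 3′ reads lie outside the deleted part was not tested. The sex labels were not clearly borne out by *roX1* and *roX2*, noncoding RNAs of male dosage compensation. The range of *roX1* was 484 to 1030 CPM over female libraries and 318 to 1080 CPM over male ones. That of *roX2* was 71.1 to 162 CPM and 84.6 to 299 CPM. For *Yp1*, a yolk protein gene, the female range was 1414 to 12979 CPM and the male range 26.7 to 1966 CPM, so the sexes overlapped in each of these genes. Sex below always means the label.

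The members were a small and uneven part of the transcriptome. Together they took 116598 of 19947845 gene counts, which is 0.585%, and their share per library ran from 0.307% to 0.964%. *CR31451*, now named *mimi*, alone held 42.2% of the member counts, and the 10 highest members held 70.8%. The median of mean CPM was 5.86 over members against 20.9 over all 7865 tested genes. Only 6 members exceeded 100 CPM on average and 78 stayed under 5 CPM. A library held counts for 76 to 162 members, and 25 members had a count in all 24 libraries. Since 3′ sequencing gives about 1 read per transcript, CPM was not divided by length, and the order of levels below is an order of read shares.

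*CR31451* overlaps the microRNA gene *mir-9381* and lies downstream of *CG31140* on the same strand, whose end is within 2 kb. It was measured at 3055, 2432 and 2219 CPM in female controls, 3283, 2389 and 2770 CPM at 1 h, 2890, 2789 and 2850 CPM at 2 h and 3068, 2338 and 2791 CPM at 4 h post-TBI. In males it was measured at 4175, 1332 and 2698 CPM in controls, 3075, 1117 and 2989 CPM at 1 h, 3078, 3428 and 2903 CPM at 2 h and 3561, 2653 and 2829 CPM at 4 h. Its 2 lowest libraries were male control replicate 2 and male 1 h replicate 2, the pair low in muscle markers, and each injured group overlapped the controls of its sex. The largest of its 6 injury differences was 0.20 ± 0.33 (log2 FC ± SE, male 2 h, n = 3 against 3), with an edgeR adjusted p of 0.873.

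*CR40469* stood second at a mean of 447 CPM. Its counts in female controls were 247, 494 and 399, and in males 32, 21 and 489 in controls, 699, 13 and 83 at 1 h, 237, 906 and 182 at 2 h and 56, 570 and 562 at 4 h. Male control replicate 2 and male 1 h replicate 2 gave 17.0 and 7.09 CPM, while every other library gave at least 225 CPM. The same 2 libraries thus set the low male control and 1 h means of 252 ± 249 and 306 ± 327 CPM (SD, n = 3), against 454 to 584 CPM for the means of the female injured groups. Its injury differences ran up to 1.05 ± 0.94 (log2 FC ± SE, male 4 h), with an edgeR adjusted p of 0.962.

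The third, *CR43701*, is annotated as a short noncoding RNA of 93 bases and lies antisense to *stet*, which encodes a rhomboid-like protease. It was measured at 647, 171 and 245 CPM in female controls and at 620, 46.0 and 188 CPM in male controls, and the largest SD within a group, 478 CPM at male 1 h, exceeded the gap between the lowest and highest group means of 285 and 567 CPM. *CR42862*, which overlaps *CG33229*, ran in the reverse order within both control groups, at 221, 621 and 255 CPM in female controls and 162, 867 and 248 CPM in male controls. It gave the lowest unadjusted p of the 10 highest members in an injury comparison, 0.065 by edgeR at 1 h in females, where it was measured at 156, 124 and 136 CPM (log2 FC -1.40 ± 0.72, adjusted p = 1). All 3 of these libraries were below the 3 female controls.

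*CR44832* on the X chromosome was the steadiest of the 10, with a coefficient of variation of 0.209 over 24 libraries and group means of 156 to 219 CPM. The other 5 of the 10 highest, *CR45018*, *CR43627*, *CR40766*, *CR43604* and *CR43459*, all ranged more widely. Over the 10 highest members and 6 injury comparisons the median of |log2 FC| was 0.28 and the largest was 1.40, and none was called.

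**Figure D1:**
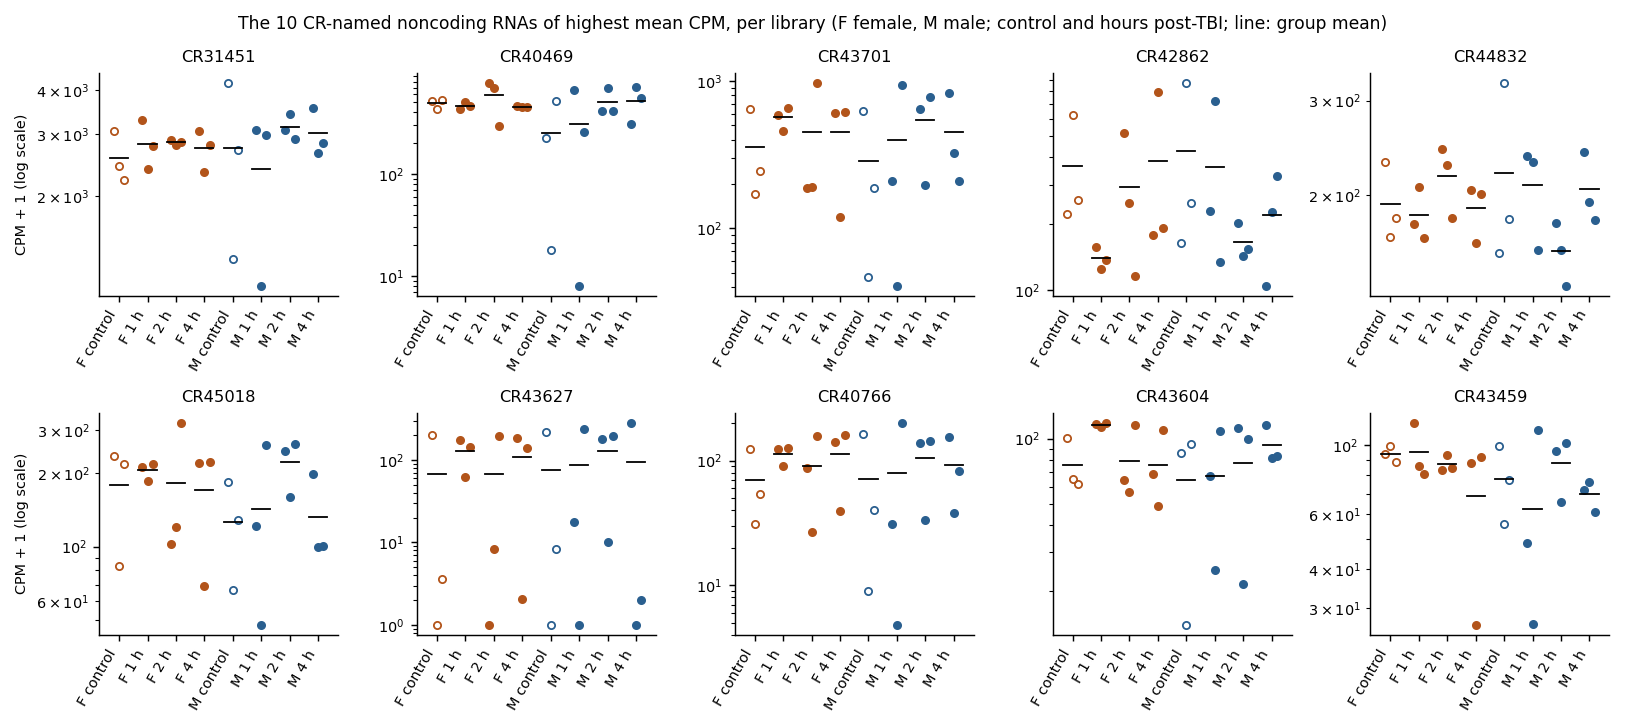
CPM + 1 on a log axis for the 10 members of highest mean CPM, with 3 libraries per group (orange female, blue male, open circles controls, lines group means). *CR44832* has the smallest spread, and *CR40469* has 2 male libraries at 17.0 and 7.09 CPM while the rest lie at 225 CPM or above.

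Much of the spread among libraries went with depth. The summed share of the members fell from the shallowest to the deepest library, with Pearson's r of -0.90 and Spearman's rho of -0.92 against log2 gene counts (24 libraries, permutation p = 1e-05 for both, the smallest that 100000 permutations give, adjusted p = 3.25e-05 and 2.17e-05 over 13 relations). Without the 2 libraries farthest from the median depth r was -0.90, and within the labelled sexes it was -0.87 in females and -0.92 in males. The share has the gene counts as its denominator, and *MRE16*, a single noncoding RNA, took 0.613% of gene counts in the library where it was lowest and 32.2% where it was highest. The share of reads outside any feature, 1.74% to 7.19%, moved with the member share too (r = 0.95, rho = 0.94, 24 libraries, permutation p = 1e-05 for both). What sets these relations was not tested.

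Single members also had lower values in deeper libraries. *CR43627*, next to *Con*, which encodes the cell adhesion protein Connectin, had 31 to 106 counts in 12 libraries and 0 to 18 counts in the other 12. The first 12 libraries had 117416 to 1056271 gene counts, and the second 12 had 732181 to 1880528. Its counts were 96, 0 and 2 in female controls, 99, 64 and 69 at 1 h, 0, 8 and 76 at 2 h and 106, 1 and 106 at 4 h. In males they were 31, 0 and 7 in controls, 18, 0 and 78 at 1 h, 103, 12 and 88 at 2 h and 52, 0 and 1 at 4 h. High and low libraries thus stood side by side in 7 of the 8 groups, while female 1 h had only high ones. Against log2 gene counts its log2 of CPM + 5 gave r = -0.80 and rho = -0.83 (24 libraries, permutation p = 1e-05 for both). The same scale was used for the other single members below.

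*CR43701* (r = -0.80, rho = -0.91), *CR40766* (r = -0.78, rho = -0.88), *CR45018* (r = -0.68, rho = -0.77) and *CR43604* (r = -0.62, rho = -0.76) also had lower CPM in deeper libraries. Each holds over 24 libraries, with adjusted permutation p of 0.00325 or less for r and of 8.12e-05 or less for rho. Without the 2 libraries farthest from the median depth, r was -0.90, -0.85, -0.85 and -0.72 for these 4 and -0.83 for *CR43627*. *CR31451* (r = -0.62, rho = -0.54) and *CR43459* (r = -0.52, rho = -0.61) had the same sign, with adjusted permutation p of 0.0111 or less. For *CR43459* the relation was weak within the labelled females (r = -0.37, rho = -0.08) and lay mainly in the males (r = -0.69, rho = -0.78). *CR42862* went the other way (r = 0.65, rho = 0.69, 24 libraries, permutation p = 0.00096 and 0.00036, r = 0.67 without the same 2 libraries). *CR40469* and *CR44832* did not pass (r = -0.13 and 0.30, rho = 0.34 and 0.30, 24 libraries, permutation p = 0.544 and 0.151 for r and 0.103 and 0.152 for rho). The 3 male controls had 117416, 1407485 and 1034729 gene counts and the male 2 h libraries 552182, 1471729 and 425286, so depth overlapped between them, and its part in the group comparisons is given only as a covariate in the closing section.

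**Figure D2:**
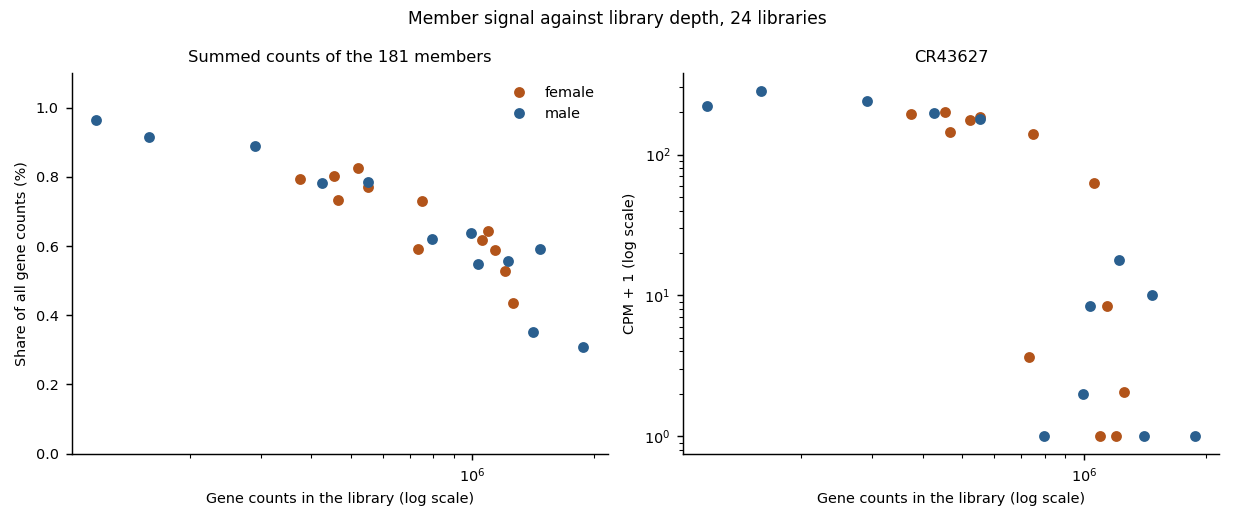
Left, the summed counts of the 181 members as a percent of gene counts, and right, *CR43627* in CPM + 1 on a log axis, each against gene counts per library on a log axis (24 libraries, orange female, blue male). The share falls from 0.964% to 0.307% with depth, and *CR43627* separates into 12 high and 12 low libraries.

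Members that overlap microRNA genes were a group that the annotation picks out. In the later annotation 15 members overlap 1 or more microRNA genes on either strand, and 14 of these had counts in at least 14 libraries. They are called hosts here, but strand and full containment were not checked, and *CR17025* and *CR46194* are listed as antisense RNA. The 3′ reads measure the member and not the mature microRNA. After *CR31451*, the highest were *CR43459*, host of *mir-277* and *mir-34*, the latter known for its effect on ageing of the fly brain, at 79.3 ± 23.4 CPM (SD over 24 libraries), *CR43650*, host of *mir-8*, a regulator of growth and insulin signalling, at 75.3 ± 24.4 CPM, and *CR43651*, host of *mir-14*, at 74.8 ± 30.4 CPM. The SDs of these 3 hosts were several times the gaps between their means. *CR31044* (*mir-279* and *mir-996*) followed at 48.0 ± 26.4 CPM and *CR43334*, host of the growth-promoting microRNA *bantam*, at 27.2 ± 17.2 CPM. Further down stood *CR46006* (*mir-276a*) at 15.9 ± 8.21 CPM, *CR45910* (*mir-1000*) at 9.69 ± 9.92 CPM and *CR45919* (*mir-124*) at 5.33 ± 5.85 CPM.

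The median log2 FC of the 15 hosts was between -0.05 and 0.11 in 5 of the 6 injury comparisons and 0.43 in males at 2 h. The same median over all tested genes was between -0.06 and 0.02. In the injury comparisons 2 calls were made among hosts, both on sparse counts, 1 of 15 hosts at male 1 h (background 4.64%) and 1 of 15 at male 2 h (background 7.26%). *CR46194* (*mir-281-1* and *mir-281-2*) had no count in male controls and 0, 11 and 3 counts at 1 h, where it was called higher (edgeR unadjusted p = 0.0349, adjusted p = 0.999). *CR17025*, host of *mir-252*, was called higher in males at 2 h (edgeR unadjusted p = 0.0484, adjusted p = 0.64), where its counts were 0, 44 and 0, so 1 library carried all of them. It had counts in only 4 libraries in all and would fail the count rule without male 2 h, so this difference was partly built into its choice.

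Between the labelled sexes, taken over the 4 conditions, 13 of 181 members were called by the rule of the study's figure legends (|log2 FC| over 1 and p under 0.05 before adjustment), where 3.03% of all tested genes were called. At an FDR under 0.05, the rule of the study's methods, neither a member nor any other of the 7865 genes passed in edgeR, while 14 members had p under 0.05 before adjustment, whatever their fold (background 4.01%). Of the 13 members, 12 were lower in males (background 1.65%) and 1 was higher (background 1.37%). The median log2 FC was -0.25 over the members and -0.04 over all genes. The members' median was -0.13 without the 3 libraries that stood apart and -0.68 without the 3 shallowest, where that of all genes was -0.03 and -0.07. The 12 were sparse, at 1.75 to 19.8 CPM on average: 7 of them had no count in the 3 male 1 h libraries and 6 had none in the 3 male controls. For the named members with a group at 0 counts the fitted fold is no exact value, so the mean CPM of each sex is given in its place. In whole brains, fewer cells of a type and less RNA per cell cannot be told apart.

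*CR44987*, annotated antisense to *dbr* (*debra*) and *galectin*, gave the lowest p (11.8 ± 8.39 CPM in females and 6.60 ± 8.97 CPM in males, SD, n = 12 each, edgeR unadjusted p = 0.00071, adjusted p = 1). It had 4, 7 and 22 counts in female controls, 2, 14 and 7 at 1 h, 6, 9 and 1 at 2 h and 15, 9 and 11 at 4 h. In males it had 1, 0 and 3 counts in controls, none at 1 h, 12, 35 and 6 at 2 h and 1, 0 and 3 at 4 h. All 12 female libraries had a count and 7 of the 12 male libraries did, while the 3 male 2 h libraries, at 20.8, 26.4 and 13.5 CPM, were above the female mean of 11.8 CPM. The partner *dbr* had a log2 FC of -1.74 in the same comparison (edgeR unadjusted p = 0.0272), whereas *galectin* had -0.26 (unadjusted p = 0.349). *CR44987* was also the only member in the test of the 8 groups to pass an FDR of 0.05 by DESeq2 (adjusted p = 0.0496). In that test 13 of all 7846 genes passed by DESeq2, while edgeR gave *CR44987* an adjusted p of 1.

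*CR44779*, on the X chromosome, had 32 counts in 8 of 12 female libraries and 3 counts in 2 of 12 male libraries, a male to female ratio of 0.0875 (exact 95% interval 0.0172 to 0.280, counting error only, edgeR unadjusted p = 0.00314). *CR44841*, antisense to the kinase gene *S6KL*, had counts in all 12 female libraries (lowest 1, median 3, highest 23) and in 4 of 12 male libraries (lowest 0, median 0, highest 5). It averaged 6.47 ± 5.83 CPM in females and 1.66 ± 3.50 CPM in males (SD, edgeR unadjusted p = 0.00341). *CR45129*, antisense to *Dscam1*, a gene of neuronal self-recognition, had a median of 4.5 counts and a highest of 24 in females and a median of 1 and a highest of 12 in males (6.80 ± 6.43 and 2.56 ± 3.11 CPM, SD, edgeR unadjusted p = 0.0106). *CR43146* had a median of 2 and a highest of 11 counts in females and a highest of 17 in males, with 9 of 12 male libraries at 0 (4.44 ± 4.69 and 1.71 ± 3.87 CPM, SD, edgeR unadjusted p = 0.0168). The values of the sexes overlapped for each of these members. The calls of *CR44987*, *CR44841* and *CR45129* held when any 1 library was left out, that of *CR44779* held in the 21 of 24 omissions in which it was tested, and that of *CR43146* was lost without female 2 h replicate 3. DESeq2 did not call *CR44779* or *CR43146*. Both would fail the count rule without some 1 female group, such as female 1 h. *CR44779* reached 5 counts in female libraries only, so its higher female values were partly built into the choice. *CR43146* reached 5 counts in 1 library each of female control, female 1 h and male 2 h (11, 5 and 17 counts). Its choice thus rested on libraries of both sexes. The coding partners *S6KL* (log2 FC 0.09) and *Dscam1* (-0.20) were not called.

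Among hosts, *CR44206*, host of *mir-184*, which is known for its role in oogenesis, was lower in males (25.8 CPM on average in females and 13.8 in males, log2 FC -1.07 ± 0.51, edgeR unadjusted p = 0.0442), as was *CR46194* (3.75 ± 2.99 and 2.03 ± 3.37 CPM, SD, unadjusted p = 0.0192 by edgeR). The 1 member called higher in males was *CR46035*, which had 37 counts in 8 male and 13 counts in 5 female libraries (3.36 and 1.23 CPM on average, edgeR unadjusted p = 0.031), a call that was lost in DESeq2. This call was also lost in 4 of 24 omissions of 1 library. These were male control replicate 2, male 1 h replicate 1, male 2 h replicate 3 and male 4 h replicate 2. Without the 3 libraries that stood apart, 8 of 159 members were called between the sexes (background 2.26%), and without male control replicate 2 alone 8 of 173 were (2.31%). Without male 1 h replicate 3 the number was 31 of 181 (5.44%).

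**Figure D3:**
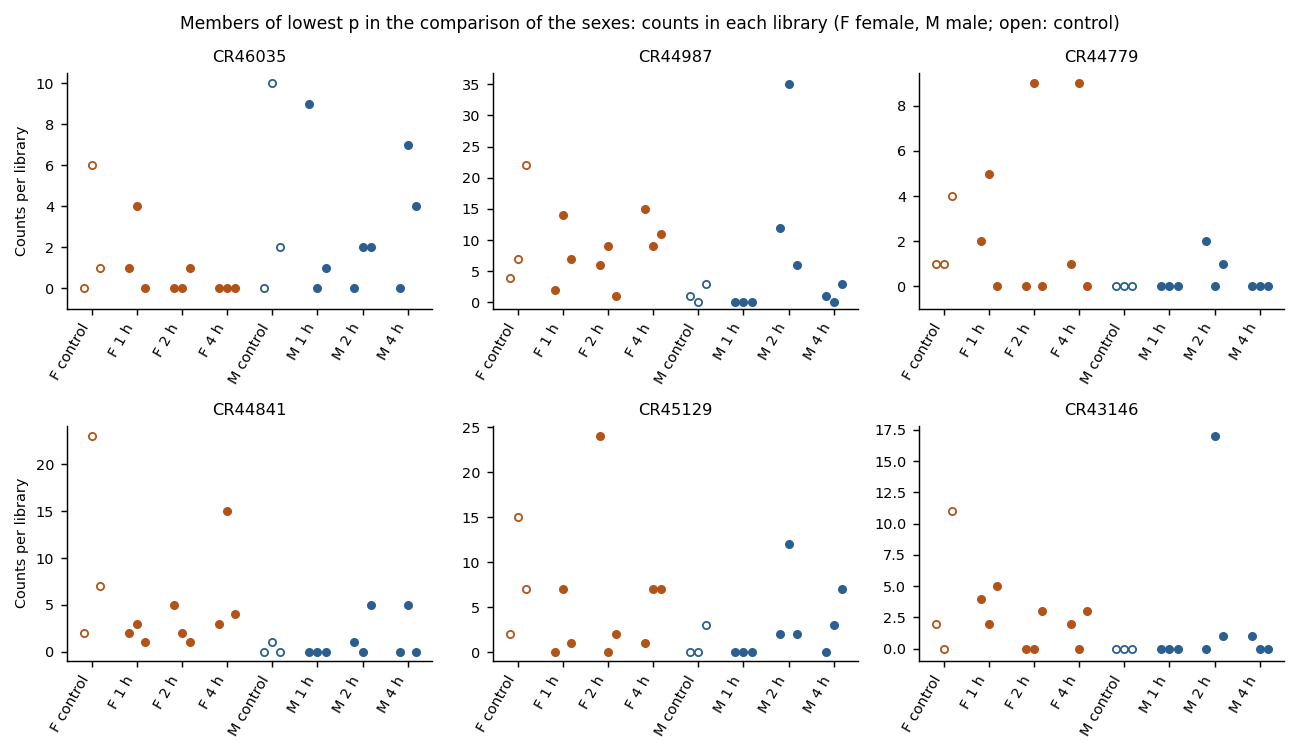
Counts in each library for *CR46035* and the 5 members of lowest p among those lower in males (orange female, blue male, open circles controls). All 12 female libraries of *CR44987* and *CR44841* have a count, the 3 male 1 h libraries of the 5 lower members have none, and *CR44987* reaches 35 counts at male 2 h.

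The comparisons of injured with control libraries gave more calls in males than in females, as they did over all genes. The numbers in males moved with single libraries, such as male control replicate 2, as given below. In males, 15 members were called at 1 h (background 4.64%), 14 at 2 h (7.26%) and 8 at 4 h (3.92%). In females, 3 were called at 1 h (background 1.44%), 5 at 2 h (2.16%) and 4 at 4 h (1.42%). The 3 comparisons of a sex share its 3 controls, so their calls are not separate evidence. In 23 of the 37 male calls these shared controls had no count. Of the 37 male calls 24 were higher, made up of 9 at 1 h (background 2%), 10 at 2 h (1.84%) and 5 at 4 h (1.36%). Those lower were 6 at 1 h (2.64%), 4 at 2 h (5.42%) and 3 at 4 h (2.56%). Of the 12 female calls 9 were higher, made up of 2 at 1 h (background 0.381%), 4 at 2 h (0.559%) and 3 at 4 h (0.648%), and 1 was lower at each time (1.06%, 1.6% and 0.776%). The median log2 FC over members at male 2 h was 0.49 against -0.02 over all genes, and 0.35 with members at 0 on one side set to their bound at 3 counts. Without the 3 libraries that stood apart the 2 medians were 0.13 and 0.04, and without the 3 shallowest libraries they were 0.81 and 0. No member passed an FDR of 0.05 in any of the 6 comparisons in edgeR or in DESeq2. Before adjustment edgeR gave p under 0.05, whatever the fold, for 3, 5 and 4 members in females at 1, 2 and 4 h (background 1.49%, 2.23% and 1.49%) and for 15, 14 and 8 in males (4.86%, 7.73% and 4.23%).

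The called members were scarce transcripts. Over the 10 comparisons of 2 sides 41 different members were called, with a median of 3.2 CPM and a highest of 19.8 CPM, and none of the 10 highest members was among them. In 43 of 49 injury calls 1 of the groups had no count at all, and 16 of the 41 called members were among the 34 whose choice depended on a single group. Male controls lacked any count for 21 members, male 1 h for 20 and male 4 h for 16, whereas female controls lacked 7 and male 2 h 7.

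**Figure D4:**
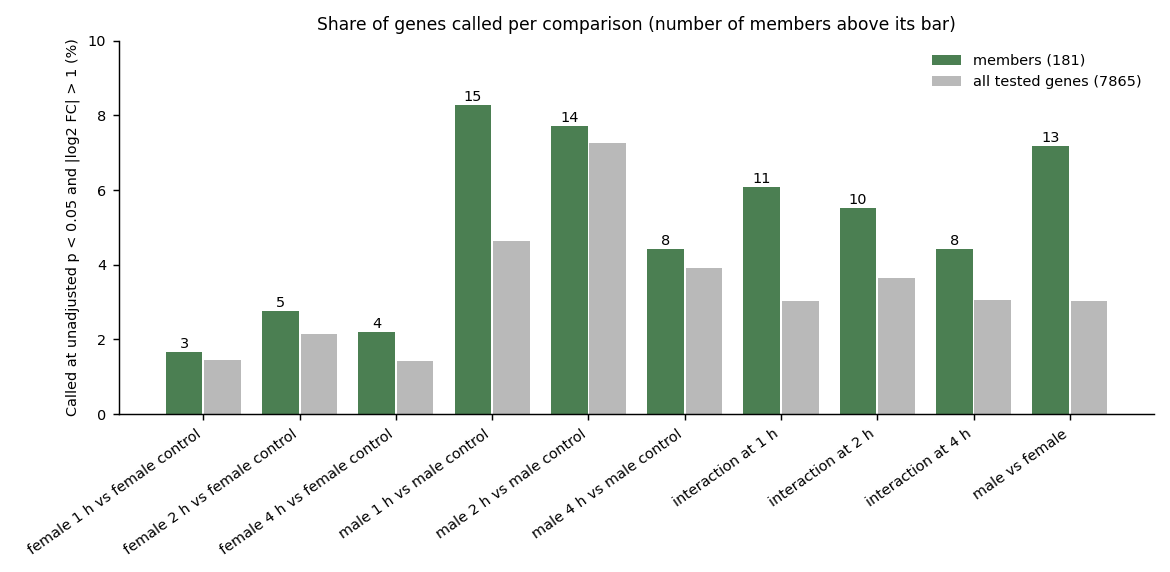
Percent of the 181 members (green, number above the bar) and of all 7865 tested genes (grey) with |log2 FC| over 1 and an unadjusted p under 0.05 in 10 comparisons. Members stand at 8.29% against 4.64% at male 1 h, at 7.73% against 7.26% at male 2 h and at 7.18% against 3.03% between the sexes.

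The 5 members named among the higher calls in males all had no count in the 3 male controls. These controls had 2559630 gene counts in all, of which male control replicate 1 held 117416. *CR43605*, which lies antisense to *CG33144*, had 0, 0 and 10 counts at male 1 h, 6, 10 and 14 at 2 h and 4, 3 and 5 at 4 h. It was called higher at each time, at least 9.94-fold at 2 h and 4.64-fold at 4 h against a floor of 3 counts over the controls (edgeR unadjusted p = 0.00333 and 0.011). Such folds, here and below, come from counts pooled over a group and leave out the spread among its libraries. Females had a count in all 12 libraries, from 3 to 19, controls included. The male 1 h call rested on replicate 3 alone, and without it no count remained in either group. The calls at 2 h and 4 h held when any 1 library was left out.

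*CR45833*, which overlaps the prenyltransferase gene *qm*, had 12, 0 and 1 counts at male 1 h, 4, 39 and 1 at 2 h and 0, 24 and 12 at 4 h. It was at least 14.6-fold higher at 2 h and 13.9-fold higher at 4 h (edgeR unadjusted p = 0.00341 and 0.00291, adjusted p = 0.64 and 0.96). In females it had 1, 18 and 12 counts in controls and 2, 0 and 1 at 4 h. Within the injured male groups 1 library held most of the counts, as replicate 2 did at 2 h. Its neighbour *qm* had a log2 FC of 1.17 at male 2 h (edgeR unadjusted p = 0.0967) and was not called. Both male calls of *CR45833* at 2 h and 4 h held when any 1 library was left out.

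*CR45539* lies within 2 kb downstream of *fend*, a gene of axon growth, and had 0, 0 and 2 counts at male 1 h, 2, 23 and 1 at 2 h and 4, 9 and 1 at 4 h. It was at least 8.61-fold higher at 2 h and 5.42-fold higher at 4 h in males (edgeR unadjusted p = 0.0152 and 0.0118). In females its 12 control counts were 2, 0 and 10, and no count was found at 2 h, at least 4.25-fold lower (edgeR unadjusted p = 0.0183). The male 4 h call held when any 1 library was left out, whereas that at 2 h was lost without male control replicate 2 or male 2 h replicate 2. *fend* itself had log2 FC of -0.17 and -0.06 at male 2 h and 4 h and of -0.31 at female 2 h.

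*CR43960*, inside the region of *Ten-a*, which encodes a synaptic partner-matching protein, had 36, 0 and 2 counts at male 1 h, 3, 6 and 5 at 2 h and 2, 2 and 4 at 4 h. At 1 h it was at least 9.16-fold higher (edgeR unadjusted p = 0.00548), with 36 of 38 counts in replicate 1, without which the call was lost. *Ten-a* had a log2 FC of -0.22 there (unadjusted p = 0.521 by edgeR). Female controls had 5, 14 and 6 counts of *CR43960*. The last of the 5, *CR32652* on the X chromosome, had 22, 23 and 0 counts at male 1 h, at least 10.9-fold higher (edgeR unadjusted p = 0.0169), and 7 counts in the later male groups together. It would fail the count rule without male 1 h, so this difference was partly built into its choice. The call was lost without male control replicate 2 or 3 and in DESeq2.

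**Figure D5:**
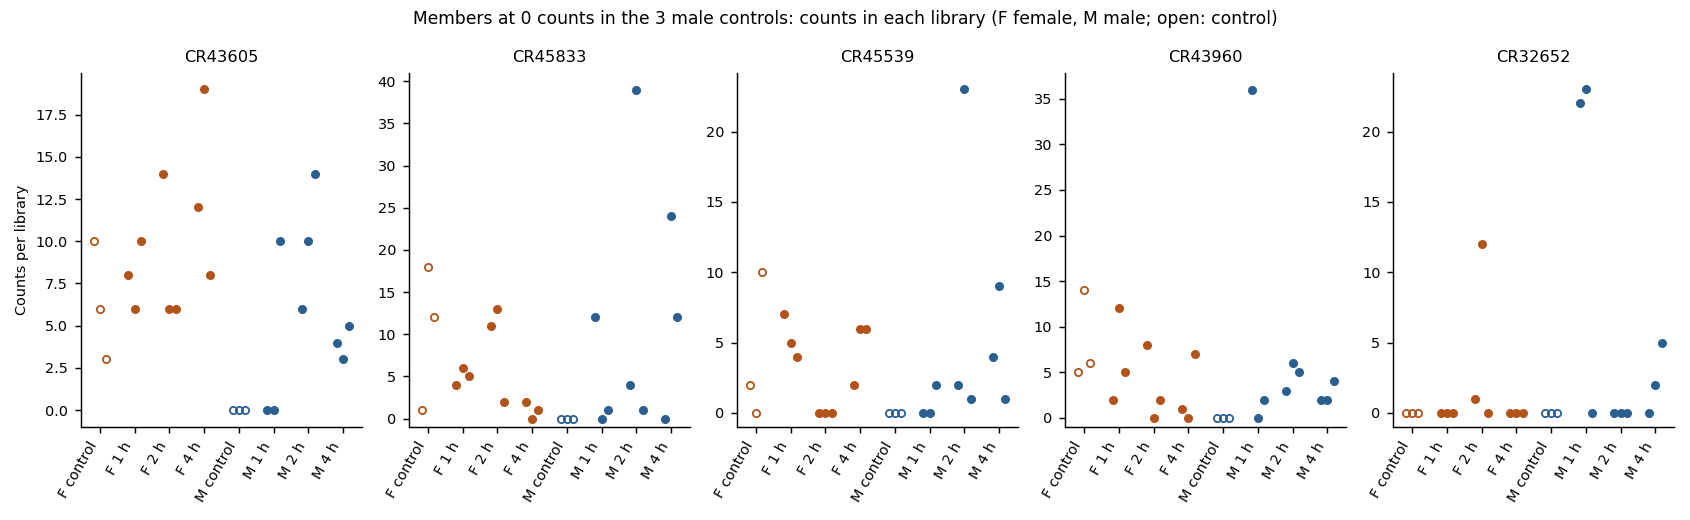
Counts in each library for 5 members at 0 counts in the 3 male controls (orange female, blue male, open circles controls). Female controls hold counts of each but *CR32652*, up to 18 for *CR45833*, and single libraries reach 39 for *CR45833* at male 2 h and 36 for *CR43960* at male 1 h.

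In 8 of the 9 members taken by the naming rule among the lower calls in males, male control replicate 2 held the most control counts. This library was the deepest male control, with 1407485 gene counts against 117416 and 1034729. How many of all genes had most control counts there was not counted. It was also low in muscle markers and in *nSyb*, *brp* and *elav*. *CR44018*, antisense to the homeobox gene *hth*, had 0, 21 and 2 counts in male controls and none at 1 h, at least 10.6-fold lower (edgeR unadjusted p = 0.00812). *CR45009*, antisense to *FucTC*, had 0, 14 and 10 counts in controls and none at 1 h, at least 11.1-fold lower (edgeR unadjusted p = 0.0112). *CR43629*, antisense to *CG31522*, had 1, 54 and 19 counts in controls and 1, 0 and 4 at 2 h (log2 FC -2.96 ± 1.30, edgeR unadjusted p = 0.0309).

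*CR45395* had 2, 0 and 15 counts in male controls and none at 1 h, at least 7.83-fold lower (edgeR unadjusted p = 0.00372). It had the lowest p of the members in that comparison, and its control counts lay in replicates 1 and 3. *CR44133*, which overlaps the GATA factor gene *srp*, had all 29 of its control counts in replicate 2 and would fail the count rule without the male controls. The calls of *CR45395* and *CR45009* held when any 1 library was left out. That of *CR44018* was lost without male control replicate 2, and that of *CR43629* without this library, male 2 h replicate 1 or male 2 h replicate 2. The call of *CR44133* was lost without any 1 of the male 4 h libraries and in DESeq2. Without the 3 libraries that stood apart *CR45009*, *CR44018* and *CR43629* were not called.

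The numbers of calls in males moved with single libraries, over all genes as over members. Without male control replicate 2, 10 of 173 members were called at 1 h (background 3.35%), 2 at 2 h (1.96%) and 4 at 4 h (1.49%). Without the 3 libraries that stood apart 6, 4 and 4 of 159 members were called (2.34%, 2.56% and 2.07%). The numbers were higher at 1 h without male 1 h replicate 3 (25 of 181, background 8.46%), at 2 h without male control replicate 1 (21 of 181, background 11.7%) and at 4 h without male control replicate 3 (18 of 177, background 7.02%). The muscle list summed to 376 CPM in male control replicate 2 and to 2957 and 3719 CPM in the other controls, and its part in these calls was not tested.

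In females the calls were fewer. *CR43700* had no count in the female controls and 5, 11 and 2 counts at 1 h, at least 6.88-fold higher (edgeR unadjusted p = 0.0232). At 4 h it had 4, 0 and 5 counts, at least 3.14-fold higher (unadjusted p = 0.0452 by edgeR). In males it ran the other way, with 0, 16 and 6 counts in controls and none at 1 h. *CR9284* had 1, 0 and 0 counts in female controls and 6, 13 and 7 at 1 h, a ratio of 29.8 with an exact 95% interval of 4.9 to 1223 (edgeR unadjusted p = 0.0445). All 3 libraries at 1 h were above the 3 controls for both members.

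*CR43480*, antisense to *CG17159* and *CG17162*, had 1, 19 and 6 counts in female controls and none at 1 h or 4 h, at least 7.56-fold and 8.28-fold lower (edgeR unadjusted p = 0.0353 and 0.0313). At female 2 h it had 0, 14 and 0 counts and in males 16 and 39 counts in replicate 2 of control and 1 h, with 1 count in the other 10 male libraries. *CR44365* (1, 0 and 0 counts in female controls, 6, 19 and 1 at 2 h) and *CR45670* (2, 0 and 2 in controls, 7, 24 and 10 at 4 h) were higher after injury, the latter by 2.98 ± 1.42 on the log2 scale (edgeR unadjusted p = 0.0448). *CR32652*, *CR43300* and *CR32385* were called higher on 12 or 13 counts against none. *CR44365* would fail the count rule without female 2 h and *CR32385* without female 4 h, so these differences were partly built into their choice. DESeq2 did not call *CR43480* at either time, *CR43700* at 4 h, *CR32652*, *CR43300* or *CR32385*, and without the 3 libraries that stood apart the calls of *CR43700*, *CR9284*, *CR44365*, *CR32652*, *CR43300* and *CR45670* were lost. No call of a named member in females held in every omission of 1 library, with 2 to 10 omissions that lost it. Leaving out 1 library moved the totals over a wide range: without female control replicate 2, 1 of 175 members was called at each time (background 0.531%, 1.63% and 1.26%), while 10 of 181 were called at 1 h (3.01%) and 11 at 4 h (2.39%) without female control replicate 1, and 10 at 2 h without female 2 h replicate 3 (3.32%).

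Whether the sexes differed in their response was asked by the interaction of sex and injury. At 1 h 11 members were called (background 3.04%), at 2 h 10 (3.65%) and at 4 h 8 (3.05%), and none passed an FDR of 0.05 by edgeR, where the same 11, 10 and 8 members had p under 0.05 before adjustment (background 3.05%, 3.67% and 3.05%). The effect was more positive in males for 4, 8 and 5 of them (background 1.64%, 1.51% and 1.42%) and more negative for 7, 2 and 3 (1.4%, 2.14% and 1.63%). Leaving out male 1 h replicate 3 gave 22 at 1 h (background 7.34%). *CR45833* had the lowest p of the interactions, at 4 h (edgeR unadjusted p = 0.000794, adjusted p = 1), and *CR45539* at 2 h followed (unadjusted p = 0.00136 by edgeR). Both had counts in female controls and none in male controls. The test of any difference among the 8 groups called 8 members (background 2.58%), led by *CR44987* (edgeR unadjusted p = 0.0032) and *CR32652* (0.00941), the latter not called by DESeq2.

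Other noncoding RNAs with names of their own were set beside the members, from a list of which 23 were in the count table and 14 passed the count rule. *MRE16* and *noe* were far more abundant than any member, at means of 110605 and 66463 CPM, and *roX1*, the stress-responsive *Hsromega* and *snRNA:7SK*, a brake on transcription elongation, had 852, 282 and 330 CPM. In the 6 injury comparisons *iab-8*, a transcript of the bithorax complex, was called higher at male 4 h, *RNaseP:RNA*, the RNA of tRNA processing, was called lower at male 1 h, and *Uhg4*, a host of small nucleolar RNAs, was called lower at male 2 h. None of the 14 was called in females or between the sexes. In the comparison of the labelled sexes *roX1* and *roX2* had a log2 FC of 0.0056 and 0.41.

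Some members have since been named for a function. *CR44404* is *IBIN*, a short peptide gene known to be induced by infection, and was annotated as noncoding when these reads were counted. It had 5, 1 and 16 counts in female controls and 6, 18 and 5, then 21, 17 and 2, then 7, 0 and 12 counts at 1, 2 and 4 h. In males it had 1, 2 and 28 counts in controls and 42, 76 and 6, then 8, 47 and 8, then 5, 12 and 28 counts at the same times. Its largest injury difference was 1.31 ± 1.01 (log2 FC ± SE, male 1 h, edgeR unadjusted p = 0.204), and the 3 male 1 h libraries at 39.3, 41.5 and 18.5 CPM overlapped the controls at 7.04, 1.61 and 29.4 CPM. *CR43283* is *cherub*, known for its part in the asymmetric division of neural stem cells, and averaged 25.9 CPM with a count in 23 libraries. Its largest injury difference was -1.86 ± 1.02 (male 4 h, edgeR unadjusted p = 0.0796, not called). All 3 male 4 h libraries, at 10.9, 11.1 and 10.8 CPM, were below the male controls at 56.3, 52.5 and 15.7 CPM. *CR43653* (*Irar*), *CR43432* (*marge*) and *CR45923* (*dntRL*) averaged 5.73, 5.49 and 3.67 CPM.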

How the data were processed

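Each library held the RNA of 1 *tau*-KO brain. The authors made the counts by sorting 50 bp reads with CASAVA 1.8.2, aligning them to dm3 with STAR 2.4 and tabulating reads per gene with HTSeq, and deposited them without normalization. The annotation version and strand setting are not given in the sources used here. The other deposited tables hold the authors' own comparisons from edgeR 3.22.3 and were not used. Reads outside any gene stayed out of library sizes: not uniquely aligned reads made up 12.2 to 32.2% of a library, ambiguous ones 6.06 to 8.71% and those in no feature 1.74 to 7.19%. No count column lacked a sample.

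Genes with at least 5 counts in at least 3 of 24 libraries were fitted together, with TMM factors, by edgeR 4.0.16 (robust quasi-likelihood F-test, R 4.3.3, limma 3.58.1), with group as the only term. Adjusted p and FDR are Benjamini and Hochberg values over all 7865 genes. Each SE was taken as |log2 FC| over the square root of F. Fold bounds set a group at 0 counts to 3 counts over its libraries. They use counts pooled over each group, so they bound the pooled fold only and leave out the spread among libraries. Intervals are exact and cover counting error only. Alternatives were RLE size factors, DESeq2 1.42.0, no filter, a replicate block, counts without *MRE16* and *noe*, leaving out each library, leaving out the 3 libraries that stood apart and, chosen after seeing the data, leaving out the 3 shallowest libraries and log2 depth as a covariate. The fits were tested on simulated data, in which only genes with more counts than most called members were changed. That test does not cover calls on sparse counts. Intervals and permutations used scipy 1.17.1, summaries numpy 2.4.6 and pandas 2.3.3, and plots matplotlib 3.10.9, in Python 3.11.15.

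The members and lists were chosen with earlier results of these data known. Genes were named by rule: the 10 members of highest mean CPM, the 3 members of lowest p in each direction among those called in a comparison (5 between the sexes), and the 5 of lowest p among the 8 groups. Taken by this rule but not described singly were *CR44137* and *CR45706* (lower at male 2 h), *CR46268* (lower at male 4 h) and *CR45669* (8 groups). Members named for a known function, as microRNA hosts or for an alternative's FDR, were chosen after their values were seen. Replicate libraries differed by more than counting error, with a chi-square per gene of 2.41 to 68.2 over 24 pairs. The study's methods call them biological replicates, and the labels only number them. Flies with Tau were not analysed here.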

Additional observations from a re-analysis of the deposited data

Results flagged for a closer look

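Among the members named by rule, these had injury effects that differed between the labelled sexes in edgeR's interaction test before adjustment, and all had an adjusted p of 1. At 1 h they were *CR43700* (unadjusted p = 0.00213), *CR32658* (unadjusted p = 0.00908), *CR45395* (unadjusted p = 0.0097), *CR45376* (unadjusted p = 0.0109), *CR43960* (unadjusted p = 0.0125) and *CR45833* (unadjusted p = 0.0241), from edgeR's fit of all genes. *CR32658*, which lies within *Ten-a*, had 0, 5 and 0 counts in female controls and none at female 1 h, against none in male controls and 25, 11 and 0 at male 1 h. *CR45376*, antisense to *Swim*, had 4 counts in 1 female 1 h library and none in female controls, against 13 counts in 1 male control and none at male 1 h. DESeq2 did not call either, and each would fail the count rule without some 1 of these groups.

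At 2 h edgeR gave unadjusted p = 0.00136 for *CR45539*, unadjusted p = 0.00784 for *CR45833*, unadjusted p = 0.0126 for *CR43605*, unadjusted p = 0.0226 for *CR43300* and unadjusted p = 0.0385 for *CR43700*. *CR43300*, antisense to the testis gene *Mst87F*, had 7, 4 and 1 counts at female 2 h and none in female controls, against 0, 0 and 15 in male controls and 2, 0 and 0 at male 2 h. The testis list summed to 393 CPM in male 1 h replicate 1, where *CR43300* had 12 counts, and to under 22 CPM in each library but that one and male 1 h replicate 2. Its part in the result was not tested. DESeq2 did not call *CR43300* or *CR43700* at 2 h.

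At 4 h edgeR gave unadjusted p = 0.000794 for *CR45833*, unadjusted p = 0.0176 for *CR43960*, unadjusted p = 0.0218 for *CR43700*, unadjusted p = 0.0292 for *CR45539*, unadjusted p = 0.0308 for *CR33963* and unadjusted p = 0.0387 for *CR44785*. *CR33963*, within *Tis11*, had a count in 5 libraries only: 8 at female 2 h, 2 and 5 at female 4 h, 4 in a male control and 8 at male 2 h, and it would fail the count rule without female 4 h. DESeq2 did not call *CR33963*, *CR44785* or *CR45539* at 4 h.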

How the results depend on the processing

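No member passed an FDR of 0.05 in any comparison, under any setting, except in the test of the 8 groups. There 1 did with DESeq2 (*CR44987*, adjusted p = 0.0496), where 13 of all 7846 genes passed. Without a filter 1 did (*CR17025*, edgeR adjusted p = 0.0296), where 155 of all 11364 genes passed. Numbers of members called moved more. DESeq2 gave 5, 3 and 2 in females at 1, 2 and 4 h (113, 138 and 101 of all 7850 genes). In males it gave 9 and 8 at 1 h and 2 h (361 and 653 of 7850). It gave 3 in the 4 h interaction (222 of 7850) and 6 between the sexes (192 of 7850). Without a filter 6 were called at female 1 h (183 of all 11364 genes) and 14 among the 8 groups (742 of 11364). Without the 3 libraries that stood apart the numbers were 1, 1 and 1 in females (67, 175 and 146 of all 7357 genes). In males they were 6, 4 and 4 (172, 188 and 152 of 7357). Between the sexes 8 were called (166 of 7357) and among the 8 groups 4 (85 of 7357). Without the 3 shallowest libraries they were 24 of 181 at male 2 h (background 14.3%), 17 and 17 in the 1 h and 2 h interactions (5.74% and 7.58%), 41 between the sexes (8.61%) and 13 among the 8 groups (8%). With depth as a covariate they were 25 and 15 at male 2 h and 4 h (10.7% and 4.78%), 20 and 13 in the 2 h and 4 h interactions (6.48% and 3.93%), 21 between the sexes (4.46%) and 14 among the 8 groups (6.5%). Calls over all genes rose as well in these settings, and the cause was not tested. Of 57 calls of named members, 25 were lost in DESeq2, 4 without a filter and 15 without the 3 libraries that stood apart, where 32 held and the other 10 had no test. RLE size factors shifted the median of all genes at male 2 h from -0.02 to -0.17, and members there had a median of 0.36 in place of 0.49.

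Leaving out 1 library gave 1 to 10, 1 to 10 and 1 to 11 calls in females at 1, 2 and 4 h, 10 to 25, 2 to 21 and 4 to 18 in males, 9 to 22, 7 to 14 and 5 to 11 in the interactions, 8 to 31 between the sexes and 5 to 11 among the 8 groups, and 0 to 0 at an FDR of 0.05. For *CR43605* at male 1 h leaving out 1 library gave a log2 FC from 0 to 6.44, with 0 without male 1 h replicate 3 and again 0 without the 3 shallowest libraries, since both groups were then at 0 counts. Where 1 library of a group was left out, the remaining 2 were taken to vary like the other groups.

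Replicate numbers are not shown to pair the libraries: 54 of 84 same-numbered pairs correlated above 0.1, with a lowest value of -0.41, and 15 of 24 libraries lay closest to their own number. With a replicate block 1 member was called at female 4 h (108 of all 7865 genes), where *CR43480* held and *CR43700*, *CR45670* and *CR32385* were lost. Among the 8 groups 2 were called (173 of 7865). The other numbers stayed within 1.5 times, and 10 of the 57 calls were lost. Depth limits what can be seen: 78 of 181 members averaged under 5 CPM, which is less than 1 count in the library of 117416 gene counts.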
